A study of Mus musculus with 18 samples.

Results

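The SOCS family and Cish are 8 protein-coding genes of the mouse: Cish and Socs1 to Socs7. They were described through the accessible chromatin listed in their gene bodies and within 50 kb of their most upstream start sites (GENCODE M21, mm10). These windows held 139 of 82391 reference peaks, 144 of 84660 summits and 83 of 59617 extended regions. The members were picked by name, as 8 of 21938 protein-coding genes, by a rule that holds no measured value. Earlier results of these data were known when they were picked.

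Wild type mice provided the bone marrow from which macrophages (BMDMs) were grown, and ATAC-seq, a method based on Tn5 transposase cutting preferentially where DNA is not covered by nucleosomes, was used to map their accessible chromatin. All BMDMs, controls included, had received the vehicle DMSO for 1 h. One group then stayed untreated, and the others were exposed at 10 ng/mL to lipopolysaccharide (LPS), the bacterial ligand of TLR4, or to IL-4, a cytokine that signals through JAK kinases and STAT6. Stimulation lasted 30 min, 1 h, 2 h or 4 h, which gave 9 groups with 2 libraries each and 18 libraries in all.

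Cytokine receptors signal through JAK kinases, which phosphorylate STAT factors. The STAT dimer then enters the nucleus and binds short palindromes built from TTC and GAA. Cish and the Socs genes encode inhibitors of this route: a central SH2 domain binds a phosphorylated receptor or kinase, and a SOCS box at the end of the protein recruits elongins and a cullin ligase. Cish, Socs1, Socs2 and Socs3 are classical negative feedback genes, since they are themselves transcribed upon STAT activation, whereas Socs4 to Socs7 are better known from receptor tyrosine kinase and insulin signaling. In macrophages, Socs1 restrains interferon and IL-4 signals and Socs3 restrains the signal of the IL-6 receptor.

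The deposited lists were pooled over all libraries. No value per library, stimulus or time point could therefore be given for any member, no group was compared with another, no test was run, and the depth is unknown. Each count below describes a single catalog of cis-regulatory elements (CREs), and the main counts are set beside those over all listed features or all protein-coding genes. A reference peak is an accessible interval, a summit is its highest point with a deposited score, and an extended region joins a peak with its flanks and close neighbours. No source used here gives the unit of the score. It was therefore read only as a rank within the list, where it ran from 102 to 2781 with a median of 737. The labelled cell type was checked with macrophage markers, 8 of 8 of which (among them Csf1r, Adgre1 and Spi1) had a start site peak, against 1 of 5 for T cells (Lck), 2 of 4 for B cells (Pax5 and Ms4a1), 1 of 4 for neutrophils (S100a8), 2 of 4 for fibroblasts (Col1a1 and Pdgfra) and 3 of 4 for endothelium (Pecam1, Cdh5 and Kdr). Over all protein-coding genes, 56.5% had such a peak.

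All 8 members had a reference peak within 1000 bp of an annotated start site. The same was true of 56.5% of protein-coding genes (12402 of 21938), so a start site peak was common among genes in general. The number of summits within 50 kb differed widely among them. Socs3 had 42 and Cish 34, followed by Socs1 with 17, Socs7 with 13, Socs5 and Socs6 with 8 each, Socs4 with 7 and Socs2 with 6. The median protein-coding gene had 6 summits (quartiles 1 and 11). Only 0.164% of protein-coding genes had as many summits as Socs3 or more, and 0.520% as many as Cish or more. The corresponding share was 11.3% for Socs1, 21.1% for Socs7, 41.1% for Socs5 and Socs6, 46.1% for Socs4 and 51.5% for Socs2. Thus 3 members (Socs3, Cish and Socs1) stood in the top 10%, which began at 17 summits and, because of ties, comprised 11.3% of protein-coding genes. Socs1 stood exactly at that limit. When neighbouring peaks were joined and extended regions were counted instead, Socs3 (19 regions) and Cish (15 regions) remained far up, with 0.169% and 1.96% of genes at or above them, whereas Socs1 fell back to 7 regions and 34.2%.

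**Figure D1:**
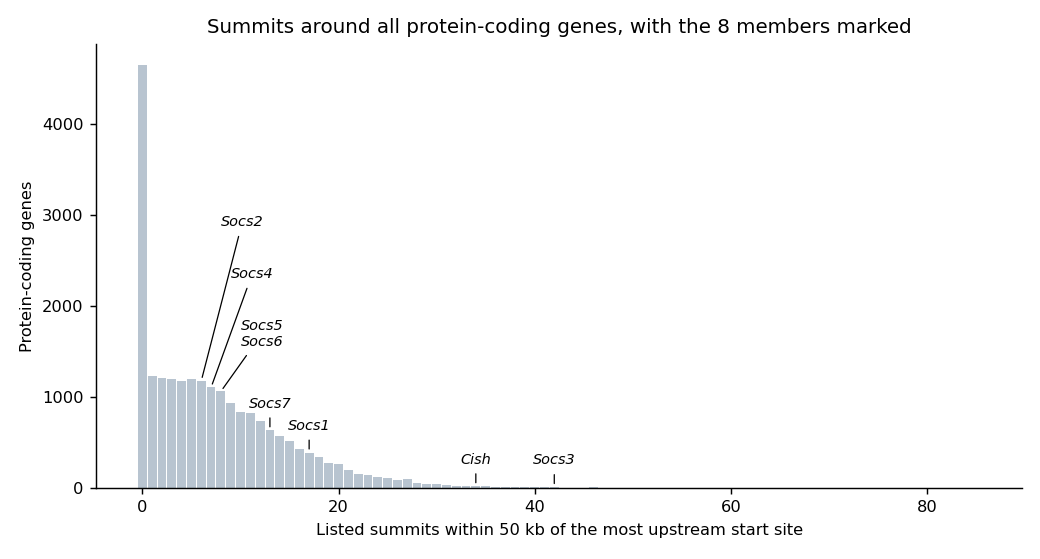
Number of protein-coding genes (vertical axis) by the number of listed summits within 50 kb of the most upstream start site (horizontal axis), with the positions of the 8 members marked. Cish at 34 and Socs3 at 42 lie in the thin right tail, whereas Socs2, Socs4, Socs5 and Socs6, at 6 to 8, lie near the median of 6.

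Scores of the members' 144 summits ran from 102 to 2206 with a median of 856 (quartiles 556 and 1147). Of these summits, 87 (60.4%) scored at or above the list median and 36 (25.0%) at or above its upper quartile of 1153, so the members held no more of the strongest summits than the list as a whole. The members' reference peaks were 82 to 1310 bp wide with a median of 238 bp, compared with 227 bp over the whole list. A single summit was called in 134 of the 139 peaks.

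The summits fell into 3 classes by position. A summit within 1000 bp of several coding genes' start sites was assigned to the nearest, so that a Socs4 summit (score 823), 724 bp from the Socs4 start site but 600 bp from one of Wdhd1, was counted with Wdhd1. At the members' own start sites lay 17 summits with a median score of 1369, a median GC content of 69.7% and a median of 17 CpG dinucleotides in 201 bases. Over 1000 bp from any coding start site lay 106 summits with a median score of 759, a GC content of 51.7% and 2 CpG dinucleotides. The list as a whole had the same contrast, with a median GC content of 61.2% within 1000 bp of coding start sites and 48.3% elsewhere. The remaining 21 lay at start sites of other coding genes, with a median score of 900. Start sites of any coding gene thus held 38 member summits (26.4%), compared with 25.7% of the list. Of the others, 63 (43.8%) lay between coding genes, compared with 33.5% of listed summits, and 43 (29.9%) inside a coding gene, compared with 40.8%. The latter comprised 26 in another coding gene, 14 in introns of the member, 13 of which were introns of Socs6, and 3 in untranslated exons of the member (Socs1, Socs3 and Socs7). The nearest coding start site was the member's own for 84 summits (58.3%) and that of a neighbour, such as Mapkapk3 or Pgs1, for the others.

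**Figure D2:**
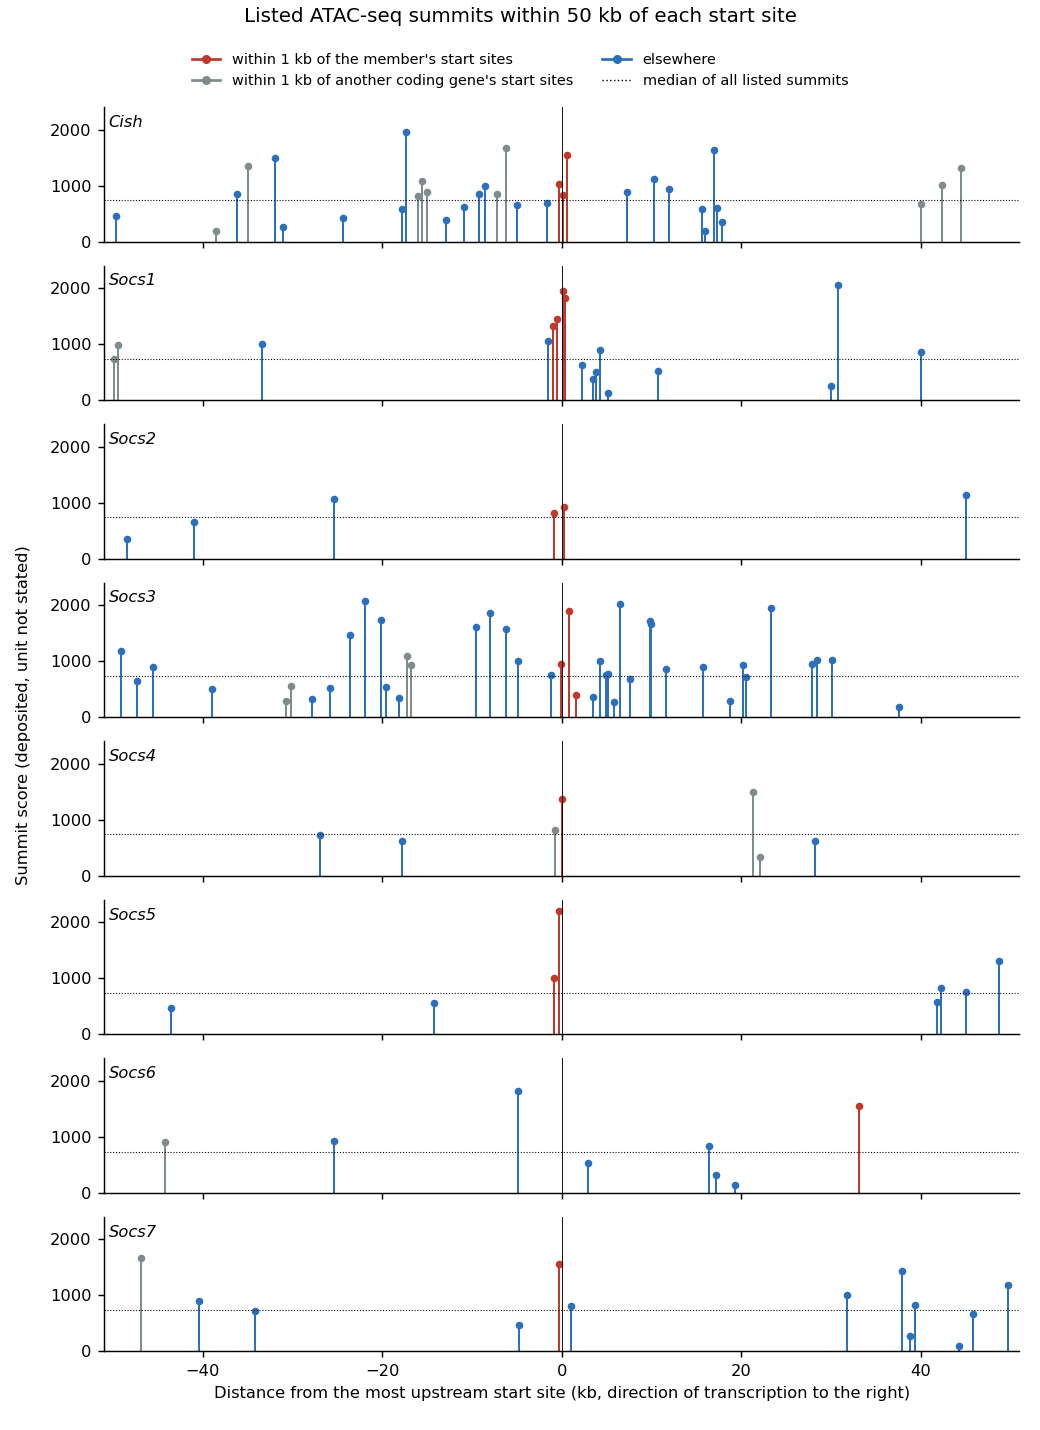
Deposited score (vertical axis, unit not stated) of each listed summit within 50 kb of the most upstream start site of the 8 members (horizontal axis in kb, direction of transcription to the right). Red marks summits within 1 kb of the member's start sites, grey those at start sites of other coding genes, blue all others; the dotted line is the list median of 737. Socs3 and Cish are dense over their windows, whereas Socs2, Socs4 and Socs5 have their summits at the start site and far from it, with none between 1 and 10 kb.

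Start sites were examined first, since this is where STAT binding to the feedback genes has been described. A STAT site was taken as TTC, any 3 bases, GAA, and a STAT6 site as TTC, any 4 bases, GAA, searched on both strands within 100 bp of a summit. Stretches of the start site summits of the 4 classical feedback genes that hold such letters are shown to give the number and spacing of the sites at these genes, with each site in capitals, in the direction of transcription and on the mm10 coordinates of GRCm38.p6. Stretches in untranslated sequence, by GENCODE or RefSeq, were cut to at most 30 bases.
Cish upstream summit, plus strand, chr9:107295636-107295836, with 1 STAT6 site: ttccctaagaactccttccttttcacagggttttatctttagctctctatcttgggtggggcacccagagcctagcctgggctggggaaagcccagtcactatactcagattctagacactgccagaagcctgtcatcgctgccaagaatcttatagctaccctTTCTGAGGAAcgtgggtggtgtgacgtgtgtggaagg
Cish main start site summit, plus strand, chr9:107296654-107296683, with 2 STAT sites: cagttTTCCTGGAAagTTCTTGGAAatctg
Socs1 upstream summit, minus strand, chr16:10785993-10786193, with 3 STAT6 sites: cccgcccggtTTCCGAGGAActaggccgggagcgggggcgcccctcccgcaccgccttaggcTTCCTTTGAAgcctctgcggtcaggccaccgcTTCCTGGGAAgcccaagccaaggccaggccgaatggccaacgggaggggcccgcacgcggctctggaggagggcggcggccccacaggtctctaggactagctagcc
Socs2 start site summit, minus strand, chr10:95416899-95416928, with 2 STAT sites: gcggaTTCCTGGAAagTTCCTGGAAagcgg
Socs3 start site summit, minus strand, chr11:117969229-117969257, with 1 STAT site: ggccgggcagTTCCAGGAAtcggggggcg

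Cish, whose protein binds activated receptors of the STAT5 pathway, had 3 start site summits. They scored 1025 at 290 bp upstream of the most upstream start site, 834 at 139 bp downstream and 1543 at 618 bp downstream. The last lay 66 bp from an annotated start site at chr9:107296710 and held a pair of STAT sites, read on the gene strand as TTCCTGGAA and TTCTTGGAA, with 11 bp from the start of one to the start of the next. Socs2, which is known for limiting growth hormone signals, had 2 start site summits, with scores of 823 and 923. The better scored lay 32 bp from the start site at chr10:95416857 and also held 2 STAT sites, both TTCCTGGAA, again 11 bp apart. In Cish and in Socs2 alike, the centres of the paired sites were 19 and 30 bp from the summit.

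A pair of STAT sites was rare in the list. Among all 84660 summits, 198 (0.234%) had 2 or more STAT sites within 100 bp, and 3 of them belonged to the members: those of Cish and Socs2 and a summit 25405 bp upstream of Socs6. A distance of 11 bp was found in 4 summits of the whole list (0.00472%), and 2 of the 4 were those of Cish and Socs2. The others lay 106468 bp from the start site of Pid1 and 4637 bp from that of Slc7a6. The 11 bp distance was singled out after the sites of Cish and Socs2 had been seen, so these counts are descriptions. Over 218 pairs of sites in the list, no single distance prevailed: the most frequent, 37 bp, occurred in 6 pairs.

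Socs3, the inhibitor of the gp130 receptor chain, had start site summits with scores of 945, 1890 and 393 at 46 bp upstream and at 770 and 1632 bp downstream of its most upstream start site. The second, 91 bp from the start site at chr11:117969186, held a single STAT site, TTCCAGGAA, whose centre was 34 bp from the summit. All 3 start site summits of the members with a STAT site (Cish, Socs2 and Socs3) had at least 1 site of the symmetric form TTCC, any base, GGAA. Of the 15 distal member summits with a STAT site, 1 had this form (6.67%). In the whole list, 737 summits had it (0.871%), which was 19.4% of the 981 start site summits with a STAT site and 12.4% of the 4398 others. This form, too, was chosen after the sites had been seen, and it rests on 3 summits.

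Socs1, a direct inhibitor of JAK kinases, differed from these 3 genes in its start site letters. Its 4 start site summits scored 1320, 1456, 1955 and 1825 at 968 and 557 bp upstream and at 138 and 380 bp downstream. None of them held a STAT site, but the one 557 bp upstream held 3 STAT6 sites, TTCCTGGGAA, TTCCTTTGAA and TTCCGAGGAA, centred 1.5, 33.5 and 85.5 bp from the summit. Windows with 3 or more STAT6 sites numbered 8 in the whole list (0.00945%), of which this was the only one among the members. The number 3 was likewise set after the Socs1 sites had been seen. The neighbouring summit 1554 bp upstream (score 1048) held a further STAT6 site, TTCTTCTGAA. At Cish, the summit 290 bp upstream held 1 STAT6 site, TTCTGAGGAA, centred 68.5 bp from it, and these 2 were the only start site summits of members with a STAT6 site. Of the members' 17 start site summits, 3 thus had a STAT site and 2 a STAT6 site. The shares over all listed start site summits were 4.51% and 4.17%.

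**Figure D3:**
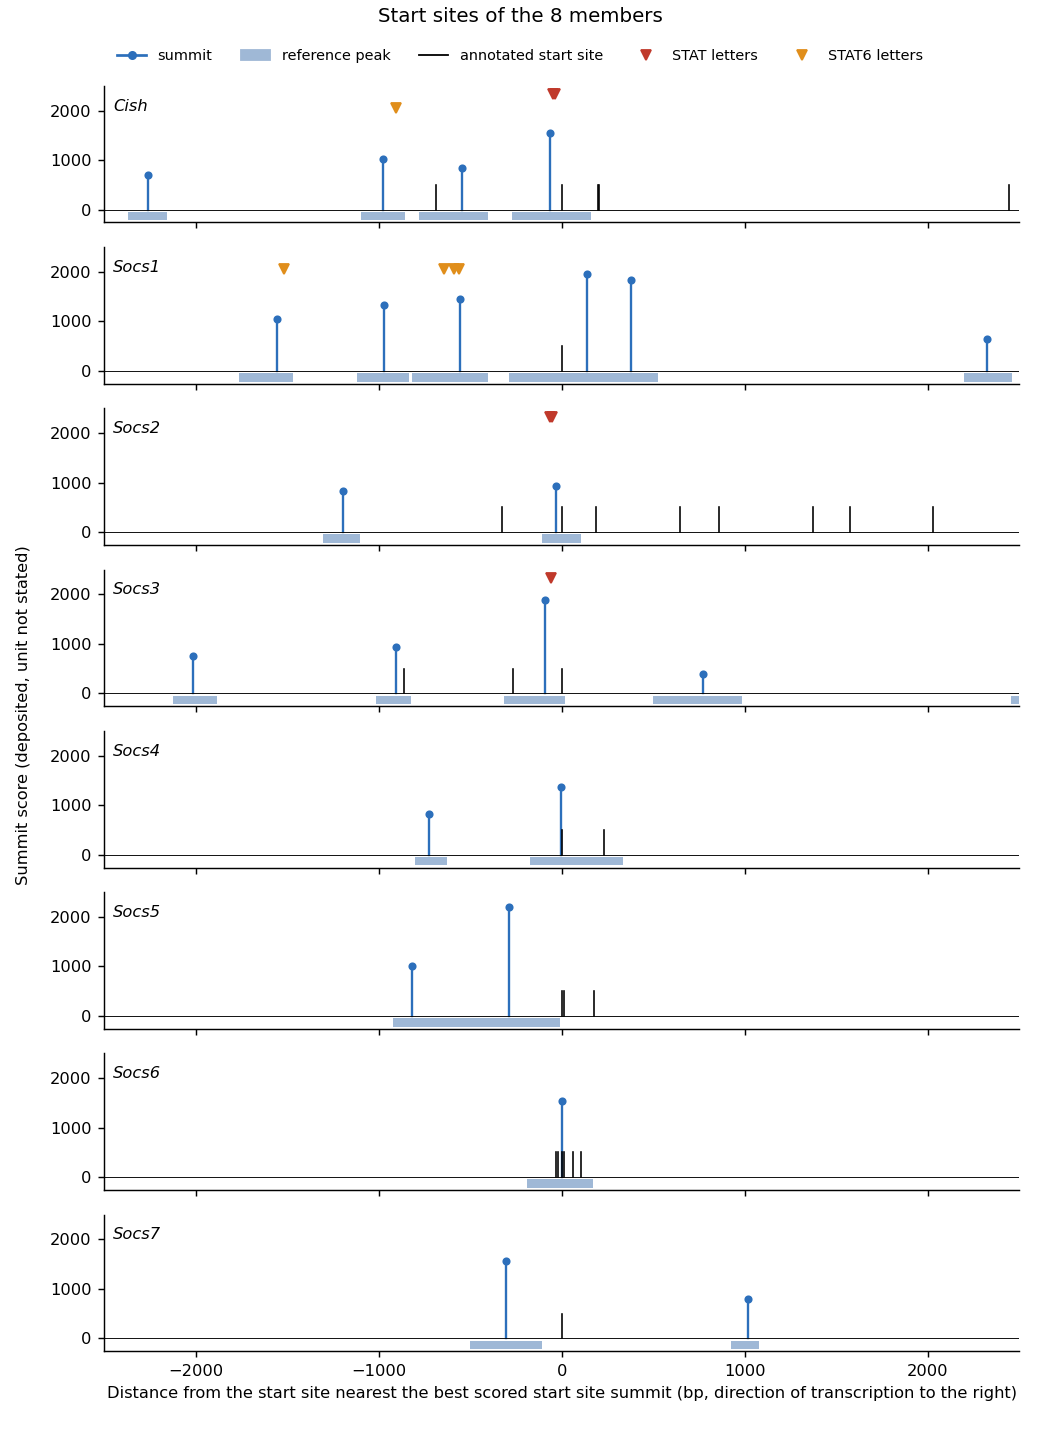
Start sites of the 8 members: summits at their deposited score (vertical axis, unit not stated), reference peaks as bars and annotated start sites as short black lines, by distance in bp from the start site nearest to the best scored start site summit (horizontal axis, direction of transcription to the right). Triangles mark STAT letters (red) and STAT6 letters (orange) found within 100 bp of a summit. The paired STAT sites of Cish and Socs2 overlap in the drawing, and Socs4 to Socs7 have no triangle.

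The start sites of Socs4, Socs5, Socs6 and Socs7 held neither kind of letters within 100 bp of a summit, although their best start site summits scored from 1369 to 2206. This rests on 2 start site summits at Socs5 and 1 each at Socs4, Socs6 and Socs7. Of all listed start site summits, only 4.51% had a STAT site and 4.17% a STAT6 site, so having neither was usual. Socs5, which acts on the EGF receptor and the IL-4 receptor chain, had the best scored summit of all members, 2206 at 289 bp upstream of its start site. Among the 12321 protein-coding genes with a start site summit, 3.17% had a best score at least as high, whereas the median gene had 1456 (quartiles 1071 and 1799). The best start site scores were 1955 for Socs1 (14.9% of genes at least as high), 1890 for Socs3 (19.1%), 1556 for Socs7 (43.3%), 1543 for Cish and for Socs6 (44.2% each), 1369 for Socs4 (56.1%) and 923 for Socs2 (82.6%). The order of start site scores thus differed from the order of summit counts: Socs5 led the first and was near the median in the second, and Cish was high in the second and near the median in the first. No spread over libraries exists for these scores, and neighbours in this order were not tested for a difference.

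Over all 144 member summits, 18 (12.5%) had a STAT site, compared with 6.35% of listed summits, and 17 (11.8%) had a STAT6 site, compared with 6.81%. Either kind was found in 34 (23.6%) against 12.6% of the list, and 1 summit, 12020 bp downstream of the Cish start site, had both. The distinct sites numbered 20 for STAT and 20 for STAT6, because a site 9928 bp downstream of the Socs3 start site lay within 100 bp of 2 summits and some summits held several. Summits of one window share a locus and are not independent, and Socs3 alone contributed 8 of the 18 summits with a STAT site. Without the Socs3 window, 10 of 102 summits (9.80%) had one. By gene, the STAT sites were in 8 of 42 summits at Socs3, 3 of 34 at Cish, 3 of 17 at Socs6, 2 of 6 at Socs2, and 1 each at Socs1 (of 17) and Socs7 (of 13). STAT6 sites were in 5 summits at Cish, 4 each at Socs1 and Socs6, 2 at Socs3, and 1 each at Socs5 and Socs7. Socs2 thus had STAT letters only, Socs5 STAT6 letters only, and Socs4 neither. Away from coding start sites, 15 of 106 member summits had a STAT site and 14 of 106 a STAT6 site, compared with 6.99% and 7.73% of distal summits in the list.

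In percentage points, letters of other factors were closer to the shares of the list. As a ratio, SP/KLF and C/EBP fell below the list by more than STAT exceeded it, on 3 summits and 1 summit. Sites of AP-1 (TGACTCA), the factor of FOS and JUN proteins, were in 25 member summits (17.4%) against 15.9% of listed ones, and those of the macrophage factor PU.1 and other ETS proteins (GAGGAAGT) in 14 (9.72%) against 9.08%. An NF-kB motif, the factor activated by LPS, was in 10 (6.94%) against 5.55%. RUNX letters (TGTGGTT) were in 8 (5.56%) against 7.91%, IRF letters (GAAA, any 2 bases, GAAA) in 4 (2.78%) against 3.64%, SP/KLF letters (CCCCGCCCC) in 3 (2.08%) against 4.46%, and C/EBP letters (TTGC, any 2 bases, CAA) in 1 (0.694%) against 1.66%. STAT letters therefore showed the largest excess over the list in percentage points among the 9 motifs searched, followed by STAT6. The order of these 2 rested on Socs3, where 8 of 42 summits had a STAT site and 2 of 42 a STAT6 site. Without the Socs3 window the STAT share was 9.80%, and STAT6 had the larger excess. The motifs do not exclude each other, and a match of letters does not say that a factor was bound.

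**Figure D4:**
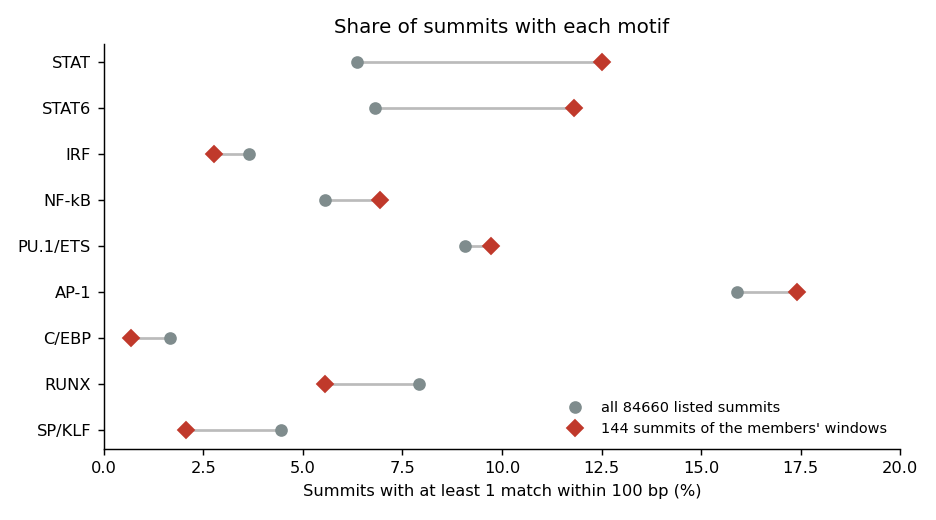
Share of summits with at least 1 match within 100 bp (horizontal axis, percent) for the 9 motifs, in the 144 member summits (red diamonds) and in all 84660 listed summits (grey circles). STAT (12.5% against 6.35%) and STAT6 (11.8% against 6.81%) show the widest distances, and AP-1 and PU.1/ETS lie close together.

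Among summits outside the start sites, the best scored ones with a STAT or STAT6 site were examined for the 3 feedback genes with the most summits. Their windows of 201 bases are shown to place these letters, again in capitals and in the direction of transcription of the member (mm10).
Cish, 16971 bp downstream of the start site, plus strand, chr9:107312897-107313097, with 1 STAT site: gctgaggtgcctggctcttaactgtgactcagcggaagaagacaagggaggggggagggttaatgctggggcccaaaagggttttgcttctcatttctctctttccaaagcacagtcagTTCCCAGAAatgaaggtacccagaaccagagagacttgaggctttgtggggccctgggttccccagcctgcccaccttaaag
Socs1, 1554 bp upstream, minus strand, chr16:10786990-10787190, with 1 STAT6 site: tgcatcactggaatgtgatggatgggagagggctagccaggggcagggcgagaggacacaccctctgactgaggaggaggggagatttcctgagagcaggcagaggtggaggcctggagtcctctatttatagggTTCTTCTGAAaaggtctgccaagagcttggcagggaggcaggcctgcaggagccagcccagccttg
Socs3, 20152 bp upstream, minus strand, chr11:117990099-117990299, with 1 STAT site: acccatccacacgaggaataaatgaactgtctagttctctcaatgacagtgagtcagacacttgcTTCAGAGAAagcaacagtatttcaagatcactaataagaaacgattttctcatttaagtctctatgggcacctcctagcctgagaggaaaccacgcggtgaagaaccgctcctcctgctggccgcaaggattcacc

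The letters TTCCCAGAA, seen in the distal Cish summit, were found at 5 of the 16 STAT sites whose letters were read (the 4 of Socs6 were not), namely once at Cish, 3 times at Socs3 and once at Socs7. At Socs3 they were found near the summits 6201 bp upstream of the start site and 7675 and 9899 bp downstream. The distal Cish summit scored 1632 and also held an AP-1 site 16895 bp downstream of the start site, as did the Socs3 summit at 20152 bp upstream (score 1734, inside Pgs1).

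The Socs3 gene (ENSMUSG00000053113.3, chr11:117966079-117970047, minus strand) is short, but 52.9% of its window lay in extended regions. Of its 42 summits, 21 were upstream and 21 downstream of the most upstream start site, and 26 had a Socs3 start site as the nearest coding one. The other 16 were nearest to Pgs1, an enzyme gene of cardiolipin synthesis whose start site is 16245 bp away; on the other side the nearest coding gene, Tha1, starts 96566 bp away. The longest gap between neighbouring peaks was 8049 bp. A pair of domains stood out. One, chr11:117985994-117994534, was 8541 bp long with 7 summits, among them the best scored of the window, 2074 at 21878 bp upstream, and it covered a Pgs1 start site. Another, chr11:117961500-117967431, was 5932 bp long with 7 summits from 3464 to 7675 bp downstream of the start site, including 1 with a score of 2021. It held the widest peak of all members (1310 bp, 3 summits). Of the 8 Socs3 summits with STAT letters, the 3 best scored outside the start site region lay at 20152 bp upstream (1734) and at 9899 and 10007 bp downstream (1721 and 1657), the last 2 sharing 1 site.

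The Cish gene (ENSMUSG00000032578.7, chr9:107296026-107302784, plus strand) lies 6149 bp from the start site of Mapkapk3, a kinase gene downstream of p38 that is transcribed the opposite way. Extended regions covered 40.9% of its window. Of its 34 summits, 21 were upstream and 13 downstream, and 12 had a Cish start site as the nearest, 19 one of Mapkapk3, 2 one of Hemk1 and 1 one of 6430571L13Rik. The best scored summit of the window, 1955 at 17317 bp upstream, lay inside Mapkapk3 and held 2 AP-1 sites. On the downstream side, with no start site of another coding gene until Hemk1, summits lay at 7276, 10293 and 12020 bp (scores 889, 1117 and 945), and 5 more lay from 15688 to 17843 bp in a region of 3832 bp. The summit at 12020 bp held 1 STAT site and 2 STAT6 sites, 1 of the latter centred 3.5 bp from it, and the summit at 10293 bp held an NF-kB motif. The window then had no peak over 22024 bp, its longest gap.

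Socs1 (ENSMUSG00000038037.5, chr16:10782240-10785536, minus strand) had 17 summits, 14 of them nearest to its own start site, and 16.9% of its window in extended regions. Its 10 summits nearest to the start site region lay in 2 adjacent extended regions with 5 summits each. The first, of 3693 bp, covered the start site (best score 1955) and the second, of 4420 bp, began 1501 bp downstream and had weaker summits (best score 900). The strongest summit of the window, however, was 30822 bp downstream, with a score of 2061, which 98.7% of listed summits did not exceed. It held 3 AP-1 sites and no STAT or STAT6 letters. The nearest neighbour upstream, Tnp2, is a sperm nuclear protein gene 3124 bp away and had no start site peak. On the other side, Clec16a starts 240197 bp away.

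Socs2 (ENSMUSG00000020027.18, chr10:95385362-95417180, minus strand) had the fewest summits, 6 in 5 extended regions that covered 9.35% of its window. Of its 12 annotated start sites, 5 had a reference peak within 1000 bp and the others, further downstream, had none. Its distal summits lay at 25328, 40994 and 48487 bp upstream (scores 1059, 654 and 358) and at 45074 bp downstream (1141, the best of the window). The one at 48487 bp upstream held a STAT site, TTCTTAGAA, and the one at 45074 bp downstream an NF-kB motif. Over 44516 bp from the start site region to the downstream summit no peak was listed, which included almost the whole gene body. The nearest coding genes on each side, Mrpl42 and Cradd, start 84760 and 93047 bp away.

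Socs4 (ENSMUSG00000048379.9, chr14:47276931-47296102, plus strand) starts 74 bp from Wdhd1, a replication gene transcribed the other way, and its best start site summit (score 1369 at 2 bp upstream) lay between both start sites. Of its 7 summits, 1 was nearest to a Socs4 start site, 3 to Wdhd1 and 3 to Mapk1ip1l, and the best scored of the window, 1493, lay at the start site of Mapk1ip1l, 21295 bp downstream. Socs5 (ENSMUSG00000037104.9, chr17:87107679-87137839, plus strand) had 8 summits, of which 7 were nearest to its own start site, and an interval of 41714 bp without a peak that began at the start site and covered the gene body. Past this interval, 4 summits lay 41810 to 48727 bp downstream of the start site, the last with a score of 1308 and a STAT6 site, TTCCAGGGAA. The nearest start sites of other coding genes on each side of Socs5 belong to Cript, 82129 bp away, and Mcfd2, 158256 bp away.

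Socs7 (ENSMUSG00000038485.5, chr11:97362551-97398542, plus strand), known for binding insulin receptor substrates and the adaptor NCK, had 13 summits, of which 4 were nearest to its own start sites, 6 to Arhgap23 and 3 to Mrpl45. Its best start site summit scored 1556 at 304 bp upstream, while the best of the window, 1670, lay at the start site of Mrpl45, 46828 bp upstream. NF-kB motifs were in 3 of its 13 summits, compared with 2 each at Cish and Socs3 and with 5.55% of listed summits. They lay near the summits 40465 bp upstream and 39338 and 44282 bp downstream (scores 900, 823 and 102, the last being the lowest in the list). Its second annotated start site, 14886 bp downstream, had no peak within 1000 bp. The closest coding gene on each side by start site was Gpr179 at 10474 bp, which had no start site peak, and Arhgap23 at 52982 bp.

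Socs6 (ENSMUSG00000056153.15, chr18:88665224-88927481, minus strand), whose protein targets receptor tyrosine kinases such as KIT, is by far the longest member at 262258 bp. Its window therefore measured 312258 bp and held 17 summits, 8 of them within 50 kb of the most upstream start site. That start site had no reference peak within 1000 bp, and the nearest summit (score 534) was 2933 bp away. The start site peak of Socs6 lay instead at a cluster of 6 annotated start sites further inside the gene, with a summit of score 1543 at 33162 bp downstream that was 3 bp from one of them. Of the others, 13 lay in introns, up to 202009 bp from the most upstream start site, and the best scored of these, 1734 at 81732 bp, held a STAT site. The best scored summit of the window, 1825 at 4820 bp upstream, held a STAT site as well. STAT6 sites were in 4 summits, all of them intronic, with scores of 341 to 845. Rttn starts 44309 bp from the most upstream start site of Socs6, and Gm5096, on the other side, 1171195 bp from it.

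The JAK-STAT pathway around the members was surveyed with a list of 38 genes. A start site peak was present for 34 of 38, compared with 56.5% of all protein-coding genes. The exceptions were Stat4, Il13ra1 and the receptors for erythropoietin (Epor) and prolactin (Prlr). The median gene of the list had 13 summits within 50 kb (range 0 to 38), compared with 10.5 for the members (range 6 to 42) and 6 for all protein-coding genes. The most summits were found at Stat6, the factor activated by IL-4, with 38, and at Il10ra, a receptor chain of IL-10, with 35, followed by Il10rb, Pias4 and Ptpn1 with 27 each. Socs3 exceeded all of them, and Cish fell below Stat6 and Il10ra only. The partners of the SOCS box (Elob, Eloc, Cul5 and Rnf7), which form the ubiquitin ligase, had a start site peak in 4 of 4 cases and 7 to 14 summits. The median best start site score was 1550 for the members, 1702 for the JAK-STAT list and 1532 for the SOCS box partners.

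In 73 of the 144 member summits (50.7%) no base of the 201 was repeat-masked, compared with 44.0% of listed summits. In 7 (4.86%) over 50% of the bases were masked, compared with 6.15%, among them the Socs6 summit with 2 STAT sites, 65.7% of whose bases were masked.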

How the data were processed

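ATAC-seq libraries of BMDMs (9 groups, 2 libraries each) had been processed by the authors, who trimmed reads with BBDuk and Trimmomatic 0.39, aligned them to mm10 with ShortStack, filtered them with SAMtools 1.9 and called peaks and sub-peak summits with MACS2 2.2.6. Peaks were called without local background and with duplicate reads kept, so copies made by PCR can add to a summit, and were retained where replicates overlapped. The methods name no correction of read ends for the Tn5 offset, and summits can be displaced accordingly.

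The authors deposited 3 BED lists of positions, without a column for any library. The summit list also carries a deposited score, whose scale is not stated in the sources used here. No column belonged to other samples (0 columns). Replicates could not be compared, and neither depth nor precision per library could be derived.

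Positions are given on mm10, counted from 1. Genes were taken from GENCODE M21 and sequence from RefSeq assembly GRCm38.p6; all entries ended inside the chromosome on 21 of 21 chromosomes. Peaks, summits and regions were counted in the gene body and up to 50000 bp from the first start site, and start site peaks within 1000 bp of any annotated start. For comparison with all genes, 50000 bp windows alone were used. Consensus letters of 9 motifs, chosen from general knowledge, were searched on both strands of the 201 bases around each of the 84660 summits, and a window was counted once. Python 3.11.15 with pysam 0.24.0, samtools 1.23.1 and matplotlib 3.10.9 were used, and counting and motif search were tested on simulated data.

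The text names all members, their nearest neighbours, the genes of the JAK-STAT and SOCS box lists without a start site peak or with the most summits, and marker genes with a peak. The members and lists were chosen with earlier results of these data known. Sequence is shown for summits with STAT or STAT6 sites, not for every member. Counts were repeated with 20000 and 100000 bp around genes, with 500 and 2500 bp for start sites, with 50 and 200 bp for motifs, with entries wholly inside the window, with 1 summit (the best scored) per extended region, and without summits below the median score.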

Additional observations from a re-analysis of the deposited data

How the results depend on the processing

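Of 24 alternatives to 7 counts, 12 stayed within 1.5 times the reported count. A start site peak was found for 8 members with windows of 500 or 2500 bp and for 7 with the most upstream start site alone, the exception being Socs6. The number of summits depended on the window: 86 within 20000 bp, 239 within 100000 bp, 87 at or above the median score. Extended regions numbered 40 and 147, and reference peaks 82 and 230, with the same windows. STAT sites were in 28 of 144 summits (19.4%; list 12.1%) with 200 bp on each side. STAT6 sites were in 10 of 144 (6.94%; list 3.75%) with 50 bp on each side and in 10 of 81 (12.3%; list 6.91%) when only the best scored summit of each region was kept. Of the members, 2 stood in the top 10% by extended regions, 3 with 20000 bp and 4 with 100000 bp. Chosen after seeing the data, restriction to summits nearest to a start site of the member left 84, and leaving out Socs3 left a STAT site in 10 of 102 summits (9.80%; list 6.35%).

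No paired analysis was possible because the lists carry no column per library, and no replicate was left out for the same reason. With depth unknown, a position without a listed summit is not shown to be closed.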
